A study of Vitis vinifera and Vitis vinifera
Schisandra chinensis with 13 samples.

Results

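The miRNAs numbered miR3623 to miR3640 were annotated from grapevine, and this account follows every product of these precursors in the miRNA table, that is, every entry named from miR3623 to miR3640, on either arm of the hairpin and with any base change. After identical entries were used once, 73 of the 1024 miRNAs in the table carried such a name. They came from 16 of the 18 numbers, since no entry was named miR3626 or miR3628. miR3631 alone gave 38 of the 73, and the other 15 numbers gave 35, of which 1 was named after potato (stu) and 1 after poplar (ptc). The Vv plants were self-rooted *V. vinifera* 'Hongruibao', and the Vs hybrids were *V. vinifera* 'Hongruibao' scions on *S. chinensis* rootstocks, both grown in one area for 25 years with no special treatment. Each of 3 plants per group gave 1 pool of RNA from its leaves, its phloem and its whole ripe berries, and so there were 3 small RNA libraries per group, beside 1 degradome library. A difference therefore cannot be placed in an organ, and fewer cells of a type cannot be told apart from less RNA per cell.

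Plant miRNAs are cut from the stem of a hairpin transcript by a Dicer-like enzyme, which leaves a duplex of a 5p and a 3p strand. The strand that enters an ARGONAUTE protein pairs with mRNAs almost along its whole length, and the mRNA is sliced near the middle of the paired stretch, so that the cut end can be read in a degradome library. Products of 21 and 22 nt are the usual form of a plant miRNA, those of 22 nt are known for setting off secondary small RNAs from the transcripts they cut, and small RNAs of 24 nt are mostly known from the silencing of repeats and transposable elements.

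The sequences that the results turn on are given first, 5′ to 3′ as the table writes them, with T for U and with the seed (bases 2 to 8) in capitals. The following are abundant strands and strands with degradome sites, with vvi-miR3624-5p beside its opposite strand.
vvi-miR3623-5p: tCACAAGTtcatccaagcacca
vvi-miR3624-3p: tCAGGGCAgcagcatactact
vvi-miR3624-5p: tAGTATGCtgctgtctttaga
vvi-miR3632-3p: tTTCCCAGacccccaataccaa
vvi-miR3633a-3p: tTCCTATAccacccattcccta
vvi-miR3633b-3p: gTTCCCATgccatccattccta
vvi-miR3634-3p: tTTCCGACtcgcactcatgccgt
vvi-miR3635-3p: aTTATGTCccacacatgcctc
These 8 sequences had 8 different seeds. Over all 73 members there were 66 seeds, 62 of them held by a single member, and no seed was shared between members of different numbers. No member lay within 3 edits of a member of another number. The names were given by sequence match to annotated miRNAs, so the separation of the numbers is partly built into the naming. miR3633a-3p and miR3633b-3p, whose hairpins lie side by side, differed by 4 edits and in the seed.

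The products named miR3627 are shown together because the 5p strand was the only member to pass the test between the groups.
vvi-miR3627-5p: tTGTCGCAggagagacggcact
vvi-miR3627-3p: tCGCCGCTctcctgtgacaag
stu-MIR3627-p5_2ss3GC19TC: tCCCAGGAgagatggcacc
ptc-miR3627b_L-2_1ss21TC: tCGCAGGAgagatggcgcca
vvi-miR3627-5p and the poplar-named sequence shared a run of 12 bases, TCGCAGGAGAGA, at a different distance from the 5′ end, so that their seeds differed. The poplar-named sequence was the same as that of an entry named aly-miR391-5p_L-1_1ss15AG, with the same counts, and was used once under the miR3627 name.

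Most hairpins lay on numbered *V. vinifera* chromosomes, with coordinates from the table. Some miR3631 hairpins lay on unplaced or unnumbered sequences, and the poplar-named precursor had no given location. The table's assembly is not named in the sources used here, and the chromosome numbers were assigned by matching precursor names to the RefSeq gene table (assembly ASM3070453v1), where all 146 names compared agreed on 1 chromosome for each sequence of the table. The MIR3627 hairpin lay on chromosome 14, bases 28302547 to 28302693, minus strand, and is printed with its 5p and 3p products in capitals.
vvi-MIR3627: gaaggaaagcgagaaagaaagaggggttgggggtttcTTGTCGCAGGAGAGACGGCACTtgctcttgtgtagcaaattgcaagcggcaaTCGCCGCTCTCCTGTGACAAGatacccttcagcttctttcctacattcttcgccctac
The MIR3624 hairpin lay on chromosome 8, bases 2139190 to 2139391, plus strand, and is shown because its 3p product had more degradome entries of category 0 or 1 than any other member.
vvi-MIR3624: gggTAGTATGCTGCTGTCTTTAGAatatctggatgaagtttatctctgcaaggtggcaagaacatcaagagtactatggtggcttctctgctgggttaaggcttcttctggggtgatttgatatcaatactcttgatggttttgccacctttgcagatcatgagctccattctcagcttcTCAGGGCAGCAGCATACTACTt
In both hairpins 1 product differed by 4 edits from the reverse complement of the other. Of the 59 precursors, 12 lay on chromosome 17, and 8 of these were not miR3631 precursors. MIR3633b (bases 5521567 to 5521678) and MIR3633a (bases 5521907 to 5522061) lay there on the plus strand, 228 bases apart. MIR3623 lay on chromosome 18, bases 24650012 to 24650140, MIR3634 on chromosome 17, bases 5681205 to 5681313, and MIR3635 on chromosome 18, bases 27357633 to 27357764.

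The members held 31.2 to 37.5% of the reads assigned to listed miRNAs in each library, whose totals ranged from 1027887 to 1738263. Most of this was 1 sequence, vvi-miR3623-5p, which took 20.1 to 29.96% of those reads in each library. Levels are given in CPM, the count relative to the listed miRNA reads of the library after TMM scaling, and the Vv libraries stood at 185213, 226853 and 287853 CPM against 269531, 283050 and 305509 CPM for Vs. The groups overlapped (log2 fold change of Vs over Vv 0.29, SE 0.23; edgeR adjusted p = 0.436). After it came vvi-miR3624-3p with a mean of 27063 CPM over the 6 libraries, vvi-miR3633a-3p with 19571, vvi-miR3634-3p with 16955, vvi-miR3623-3p_R-1 with 7051.5 and vvi-miR3632-3p with 4615. In all, 26 members had a mean of at least 100 CPM and 9 of at least 1000. Products of 22 nt held 81.5% of the members' reads and those of 24 nt 2.31%, although 39 of the 73 members were 24 nt long. Sequences that begin with T held 97.4% of the members' reads.

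**Figure D1:**
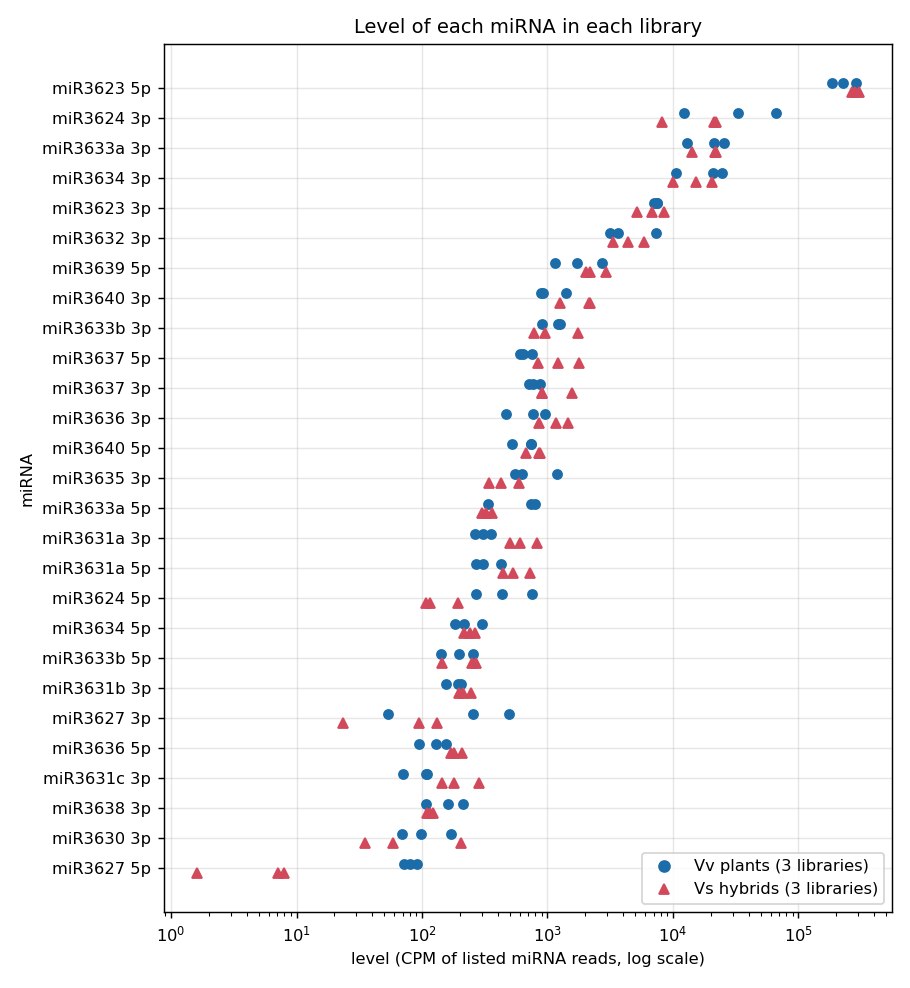
Level of each of the 26 miRNAs with a mean of at least 100 CPM, and of miR3627-5p, in the 6 small RNA libraries; the horizontal axis is CPM of listed miRNA reads on a log scale, circles are the 3 Vv libraries and triangles the 3 Vs libraries. The levels run from 1.60 CPM for miR3627-5p in a Vs library to 305509 CPM for miR3623-5p, and miR3627-5p is the miRNA whose groups stand farthest apart.

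Vs hybrids were compared with Vv plants to ask which of these miRNAs differ in a scion on a rootstock of another family. Of the 73 members, 39 had enough counts to be tested among 332 miRNAs with edgeR's quasi-likelihood test and Benjamini-Hochberg adjustment. At an adjusted p under 0.05, 1 of the 39 passed, or 2.56%, against 20 of all 332 tested, or 6.02%, of which 7 (2.11%) were higher and 13 (3.92%) lower in Vs. Leaving out Vv replicate 2 lowered the count over all miRNAs to 9, leaving out Vs replicate 2 to 1, and leaving out Vs replicate 3 to 2, and the count of members was 2 without Vv replicate 3 and 0 without Vs replicate 2 or 3, where edgeR gave 3 and 5 members at an unadjusted p under 0.05, beside 69 of 348 and 77 of 357 tested miRNAs. Without Vv replicate 3 edgeR called 17 of 350 tested miRNAs. DESeq2, on all libraries, called 2 members and 45 of 332 miRNAs. With edgeR on all libraries, 6 of 39 members and 86 of 332 miRNAs (25.9%) had an unadjusted p under 0.05. The libraries of the groups did not overlap for 11 members, 7 higher and 4 lower in Vs, or 28.2%, against a background of 31.9% (16.6% higher and 15.4% lower). The median log2 fold change was -0.05 for the members and -0.03 for all tested miRNAs. By these counts the members were not called more often than the tested miRNAs as a whole.

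vvi-miR3627-5p was the member that fell. The 3 Vv libraries had 79.9, 71.9 and 90.8 CPM, from 142, 112 and 130 reads, whereas the 3 Vs libraries had 7.07, 7.97 and 1.60 CPM, from 9, 8 and 2 reads. All 3 Vs libraries lay far below all 3 Vv libraries. The mean was 80.8 ± 9.49 CPM (SD, n = 3) in Vv plants and 5.55 ± 3.45 CPM (SD, n = 3) in Vs hybrids. By edgeR this was a fall of 14.5-fold (log2 fold change -3.86, SE 0.64; adjusted p = 0.00864). The call was lost without Vs replicate 2 (log2 fold change -4.21, adjusted p = 0.0805) or Vs replicate 3 (-3.46, adjusted p = 0.0535), and over all alternatives in which this miRNA was tested its adjusted p ranged from 1.39e-08 to 0.0805.

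The strand opposite to it in the same hairpin did not follow the same order. vvi-miR3627-3p had 491, 253 and 53.8 CPM in Vv and 23.6, 94.7 and 132 CPM in Vs. Vv replicate 3, the highest of all libraries for the 5p strand, was lower for the 3p strand than 2 of the 3 Vs libraries. The difference did not pass the test (log2 fold change -1.67, SE 0.84; edgeR adjusted p = 0.240), and without Vv replicate 1 the log2 fold change was -0.89. The potato-named stu-MIR3627-p5_2ss3GC19TC, assigned to a hairpin on chromosome 17, was at 3.94, 47.5 and 11.2 CPM in Vv and at 3.93, 8.97 and 4.81 CPM in Vs. Its Vv libraries spread more widely than the distance between the groups, with Vv replicate 2 above the rest (log2 fold change -1.82, SE 0.86, adjusted p = 0.218), and without that library the log2 fold change was -0.25. The poplar-named sequence had 7.67 reads over the 6 libraries and was not tested.

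**Figure D2:**
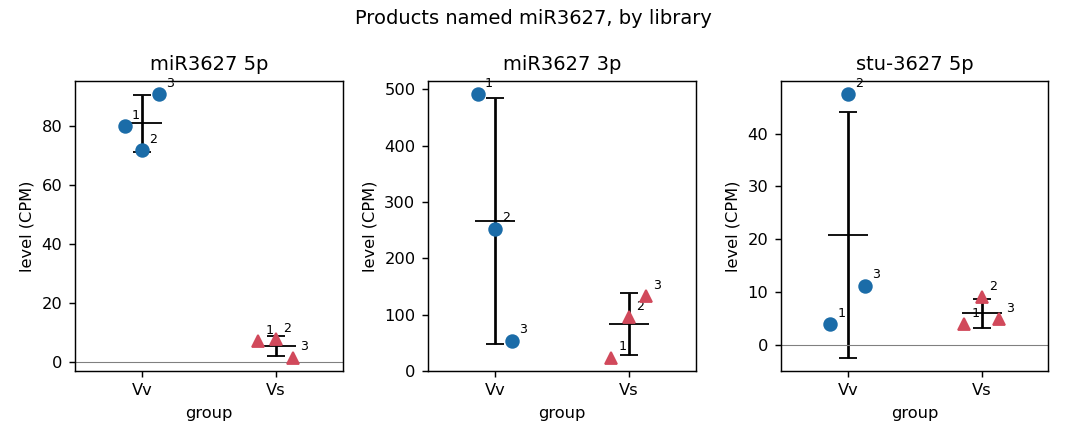
Levels in CPM of the 3 tested products named miR3627 (vertical axis, linear) in Vv and Vs libraries (horizontal axis); points are libraries with their replicate number, and bars give the mean and SD of each group of 3. The 5p strand lies at 71.9 to 90.8 CPM in Vv and 1.60 to 7.97 in Vs, while for the 3p strand Vv replicate 3 (53.8 CPM) lies among the Vs libraries.

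The 5p strand of miR3624 lay apart between the groups without passing the main test. vvi-miR3624-5p was at 431, 749 and 270 CPM in Vv and at 108, 192 and 116 CPM in Vs. All Vs libraries were below all Vv libraries, but the log2 fold change of -1.80 (SE 0.52) did not pass the test with edgeR (adjusted p = 0.0805). It passed with DESeq2 (adjusted p = 0.00872) and, with edgeR, without Vv replicate 3 (adjusted p = 0.0477), and over all alternatives the adjusted p ranged from 0.00872 to 0.211. The 3p strand, the abundant product of this hairpin, was at 33137, 65791 and 12307 CPM in Vv and at 8107, 21183 and 21857 CPM in Vs. It varied 5.35-fold among the Vv libraries alone, and the groups overlapped (log2 fold change -1.12, SE 0.59, adjusted p = 0.255). Without Vv replicate 2 the log2 fold change was -0.40.

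For miR3632 the low strand, not the abundant one, lay apart between the groups. vvi-miR3632-5p_1ss14AG was at 88.9, 100.1 and 88.7 CPM in Vv and at 46.4, 48.8 and 17.6 CPM in Vs. The groups did not overlap, and the edgeR adjusted p was 0.148 (log2 fold change -1.30, SE 0.52). The abundant vvi-miR3632-3p was at 7321, 3633 and 3125 CPM in Vv and at 3336, 4396 and 5877 CPM in Vs. Its highest library was a Vv library and its lowest another Vv library, and the log2 fold change was -0.05 (SE 0.43).

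The neighbouring hairpins MIR3633a, MIR3633b and MIR3634 on chromosome 17 gave levels that overlapped between the groups. vvi-miR3633a-3p was at 21180, 25536 and 12877 CPM in Vv and at 14183, 21731 and 21917 CPM in Vs, a log2 fold change of -0.04 (SE 0.35). vvi-miR3634-3p was at 21027, 24506 and 10636 CPM in Vv and at 9983, 15129 and 20449 CPM in Vs, a log2 fold change of -0.30 (SE 0.41). For both, Vv replicate 3 was the lowest Vv library and Vs replicate 1 the lowest Vs library. vvi-miR3633b-3p was at 1220, 1270 and 903 CPM in Vv and at 964, 777 and 1752 CPM in Vs (log2 fold change 0.04, SE 0.44). vvi-miR3633a-5p was at 742, 797 and 339 CPM in Vv and at 326, 302 and 361 CPM in Vs, where the Vs libraries agreed within 1.20-fold and Vv replicate 3 fell in their range (log2 fold change -0.93, SE 0.45; edgeR adjusted p = 0.224). The lower strands vvi-miR3633b-5p_R-1 and vvi-miR3634-5p lay at 142 to 256 and 182 to 303 CPM in Vv and at 144 to 270 and 217 to 265 CPM in Vs.

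Vv replicate 3 stood apart from the other Vv libraries for several members, without a common direction. Relative to the mean of Vv replicates 1 and 2 it was 6.92-fold lower for vvi-miR3627-3p, 4.02-fold lower for vvi-miR3624-3p, 2.27-fold lower for vvi-miR3633a-5p and 2.14-fold lower for vvi-miR3634-3p. It was higher for vvi-miR3630-3p, which was at 68.7, 98.8 and 170 CPM in Vv and at 204, 34.9 and 58.6 CPM in Vs, and for vvi-miR3635-3p, at 553, 624 and 1190 CPM in Vv and 591, 341 and 428 CPM in Vs. Both groups of libraries overlapped for these miRNAs, with edgeR adjusted p values of 0.901 and 0.297. Their opposite strands, vvi-miR3630-5p_L-1 at 21.4 to 85.2 CPM and vvi-miR3635-5p_L-2R+5 at 31.3 to 68.4 CPM over all libraries, overlapped as well. vvi-miR3623-3p_R-1 varied least in Vv among the 26 members of at least 100 CPM, at 7429, 7404 and 7115 CPM, and lay at 6799, 5126 and 8435 CPM in Vs. vvi-miR3638-3p had 212, 160 and 108 CPM in Vv and 110.04, 123 and 116 CPM in Vs. Over the 26 members of at least 100 CPM, the highest Vv library was a median of 1.73 times the lowest, and the highest Vs library 1.71 times the lowest, against 2.13 and 1.82 for all 142 tested miRNAs at that level. Vv replicate 3 also stood apart over all miRNAs with at least 10 counts in both libraries compared, members included. The chi-square per degree of freedom, a measure of difference beyond counting noise, was 679 and 675 against Vv replicates 1 and 2. Between Vv replicates 1 and 2 it was 238.

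The members of 24 nt tended to lie above 0, as did the other tested miRNAs of that length. Of the 15 tested members of 24 nt, 12 had a log2 fold change above 0, with a median of 0.56, and for 6 the groups did not overlap, all higher in Vs. This was 40.0% of them, against 42.3% of the 71 tested 24-nt miRNAs that are not members (24 higher and 6 lower). With edgeR none of these members passed the adjusted threshold and 3 had an unadjusted p under 0.05, against 9 and 23 of the 71. Of the 71, 50 were above 0, with a median of 0.57. Of the 11 tested members of 21 nt, 2 were above 0, with a median of -0.61. Of all 153 tested miRNAs of 21 nt, members included, 62 were above 0, with a median of -0.19. Of the 8 members of 22 nt, 3 were above 0, against 25 of all 54 tested miRNAs of that length, members included. Since counts are relative to all listed miRNAs, a shift of one length class against another cannot be told apart from a change in its share of the library.

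**Figure D3:**
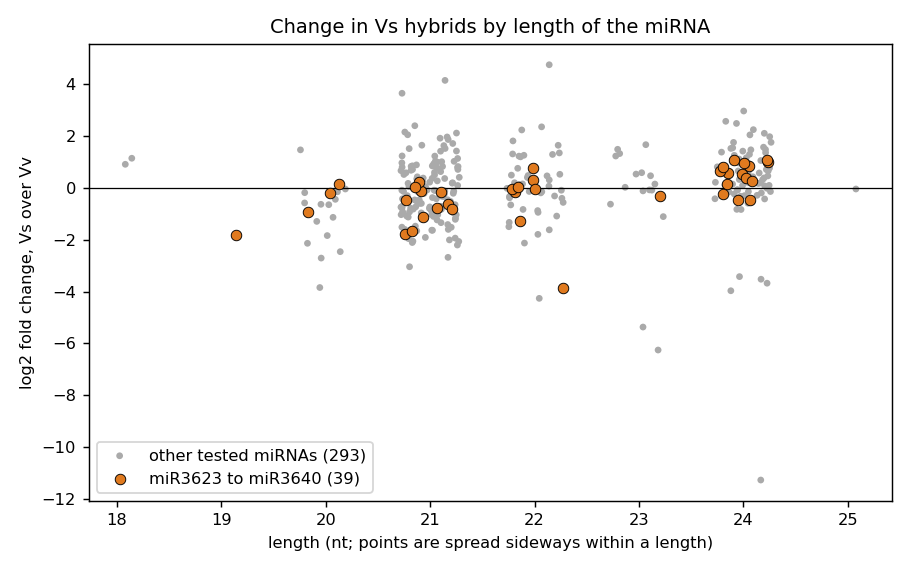
Log2 fold change of Vs over Vv (vertical axis) of all 332 tested miRNAs by length in nt (horizontal axis); small grey points are the 293 miRNAs that are not members and large orange points the 39 members. The members of 24 nt lie with the other 24-nt miRNAs, mostly above 0, and the lowest member is miR3627-5p at 22 nt.

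miR3637, miR3631, miR3636 and miR3640 made up most of this 24-nt group. vvi-MIR3637-p5 was at 748, 604 and 637 CPM in Vv and at 834, 1791 and 1222 CPM in Vs, and vvi-MIR3637-p3 at 768, 716 and 865 CPM in Vv and at 897, 1576 and 897 CPM in Vs. Both strands were higher in every Vs library than in any Vv library, by a narrow margin for vvi-MIR3637-p3 in Vs replicates 1 and 3, and had adjusted p values of 0.190 and 0.425. Without Vs replicate 2 their log2 fold changes moved from 0.95 to 0.59 and from 0.52 to 0.16. vvi-MIR3631a-p3_1ss6TC was at 308, 266 and 352 CPM in Vv and at 607, 831 and 501 CPM in Vs (log2 fold change 1.07, SE 0.40, adjusted p = 0.141 from edgeR). vvi-MIR3631c-p3_2ss6TC18TC was at 108, 69.9 and 109 CPM in Vv and at 179, 284 and 144 CPM in Vs (log2 fold change 1.08, SE 0.47, adjusted p = 0.184). vvi-miR3631a-5p, which is 22 nt long, was at 305, 270.1 and 425 CPM in Vv and at 534, 722 and 444 CPM in Vs. vvi-MIR3631d-p5 was at 11.8, 17.3 and 13.96 CPM in Vv and at 32.2, 32.9 and 20.1 CPM in Vs, and vvi-miR3631b-3p, of 21 nt, at 194, 157 and 205 CPM in Vv and at 213, 245 and 197 CPM in Vs. vvi-MIR3631a-p3_1ss22AG had 3.38, 0.642 and 23.7 CPM in Vv and 16.5, 22.9 and 9.63 CPM in Vs, so that Vv replicate 3 was its highest library. All 7 tested miR3631 products had a log2 fold change above 0, from 0.14 to 1.08, and in 4 (57.1%) the groups did not overlap, against 31.9% of all tested miRNAs and 41.9% of those of 24 nt. The median of 0.83 was that of vvi-MIR3631a-p3_1ss22AG, which moved to 2.83 without Vv replicate 3, to 0.42 without Vv replicate 2 and to 0.48 without Vs replicate 2. These products share sequence and were not independent measurements. vvi-MIR3640-p3 was at 1405, 921 and 892 CPM in Vv and at 1253, 2133 and 2180 CPM in Vs, and vvi-miR3636-3p at 963, 769 and 467 CPM in Vv and at 860, 1448 and 1170 CPM in Vs. In each, Vs replicate 1 lay in the range of the Vv libraries. vvi-miR3636-5p was at 128, 94.3 and 156 CPM in Vv and at 180, 209 and 170 CPM in Vs, without overlap. vvi-miR3639-5p_L-1R+1 was at 1703, 1150 and 2723 CPM in Vv and at 2036, 2924 and 2188 CPM in Vs, and vvi-MIR3640-p5 at 739, 525 and 744 CPM in Vv and at 674, 865 and 851 CPM in Vs, both with overlap.

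Summed over all members of a number, the libraries of the groups did not overlap for 4 of the 16 numbers. Among the 332 tested miRNAs taken singly, they did not overlap for 106, or 31.9%. The miR3631 sum was at 976, 818 and 1207 CPM in Vv and at 1658, 2250 and 1364 CPM in Vs, and the miR3637 sum was higher in Vs by 1.66-fold. The miR3627 sum was at 575, 372 and 159 CPM in Vv and at 34.6, 113 and 140 CPM in Vs, where the margin was that between Vv replicate 3 and Vs replicate 3. The miR3629 sum was 65.7 ± 11.6 CPM (SD, n = 3) in Vv and 46.5 ± 5.01 CPM (SD, n = 3) in Vs. No test was made on the sums.

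miR3631 differed from the other numbers in its hairpins. The table placed its products on 39 precursors, spread over 13 numbered chromosomes apart from 2 on a sequence that could not be numbered and 7 on unplaced sequences, against 20 precursors for the names other than miR3631. In the deposited structures a median of 83.9% of the bases of a miR3631 precursor were paired, against 72.3% for the others, with ranges of 69.6 to 91.8% and 61.0 to 87.8%. The MIR3631b hairpin (chromosome 5, bases 6430141 to 6430304, plus strand) is printed as an example, with its products vvi-miR3631a-5p and vvi-miR3631b-3p in capitals.
vvi-MIR3631b: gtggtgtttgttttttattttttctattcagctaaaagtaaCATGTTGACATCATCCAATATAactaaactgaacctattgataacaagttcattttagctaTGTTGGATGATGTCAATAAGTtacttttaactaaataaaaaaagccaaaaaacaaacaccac
vvi-MIR3631a-p3_1ss6TC: cTATTCAGccaaaaaacaaacacc
vvi-MIR3631c-p3_2ss6TC18TC: tTCAACCAaaaaacaaacaccacc
vvi-MIR3631a-p3_1ss22AG: gATGTCAAcaagttacttttagct
The 3 products after it came from other miR3631 hairpins and are given for comparison. Of the 38 miR3631 members, 33 shared a run of at least 12 bases with this hairpin on one strand or the other, and 14 a run of at least 16, whereas none of the 35 other members shared a run of 12. The name miR3631 was itself given by sequence match, so this contrast is partly built into the naming. In 3 places precursors of miR3631 on opposite strands overlapped each other, and 1 of these was MIR3631b with a MIR3631a precursor, over 111 bases. Of the 38 products, 29 were 24 nt long, 1 was 22 nt and 5 were 21 nt. Because the sequences are so alike and the deposited counts divide a read among the entries it fits, levels of single miR3631 products are uncertain.

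The 34 members that failed the count filter had 1 to 48 reads over the 6 libraries, and 31 of them were miR3631 products. The highest were vvi-MIR3631a-p3_2ss11AT22AG with 48 reads, vvi-MIR3631a-p3_1ss23AG with 32.5 and vvi-MIR3631a-p3_1ss15AT with 32.5. The others outside miR3631 were vvi-miR3625-5p with 32 reads, the poplar-named miR3627b and vvi-MIR3629c-p3_2ss6TC18CT with 3 reads, all in Vv replicate 2. Over all 73 members, 3 had no read in any Vs library and 2 had none in any Vv library. The first had 3, 2 and 2 reads in all and the others 1 read each. So few reads cannot tell absence from sampling. vvi-MIR3629b-p5_2ss6CT20GA passed the filter at 27.6, 27.6 and 16.8 CPM in Vv and at 10.2, 14.95 and 15.2 CPM in Vs, a low member whose groups did not overlap (edgeR adjusted p = 0.270). vvi-miR3629a-3p_L+1R-1 was at 10.1, 18.6 and 18.2 CPM in Vv and at 11.8, 9.97 and 8.82 CPM in Vs. vvi-miR3625-3p, vvi-miR3629a-3p_L+1R-1, vvi-miR3629a-5p and vvi-miR3638-5p were tested at means of 7.96 to 24.1 CPM, with adjusted p values of 0.415 to 0.887.

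In most hairpins with products of their own the 3p strand was the abundant one. Both strands passed the count filter for 13 precursors whose products were not shared with another precursor. In 12 of them the 3p strand was the higher by the mean log2 ratio over the 6 libraries. MIR3623 was the exception: its 5p strand exceeded the 3p strand in all 6 libraries, by a log2 ratio of 4.97 ± 0.35 (SD, n = 3) in Vv and 5.42 ± 0.32 (SD, n = 3) in Vs. At the other end, vvi-miR3624-5p was below vvi-miR3624-3p by a log2 ratio of -6.08 ± 0.50 (SD, n = 3) in Vv and -6.85 ± 0.67 (SD, n = 3) in Vs. The same strand was the higher in every library for 11 of the 13 precursors. MIR3637, whose strands were nearly equal, and MIR3627 were the others. By mean CPM the 5p strand of MIR3637 was slightly the higher, at 973 against 953 CPM. Among the precursors with shared products, the 5p strand was the higher by the mean log2 ratio for MIR3629a, MIR3629b, MIR3631b and MIR3631c. The 3p strand was the higher for MIR3631d and a MIR3631a precursor.

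The arm ratio of MIR3627 was the most variable. The log2 ratio of 5p to 3p was -2.61, -1.81 and 0.75 for Vv, against -1.67, -3.49 and -5.98 for Vs, and the groups overlapped (exact two-sided permutation p = 0.3). Among the 13 precursors, only for MIR3633a did the ratios of the groups not overlap, at -4.83, -5.0 and -5.25 in Vv and -5.44, -6.17 and -5.92 in Vs. The exact two-sided permutation p was 0.1, the smallest that 3 against 3 libraries allow, and 0.518 after adjustment over all 19 precursors tested, so that no arm ratio could pass. Of the other 6 precursors, whose products are shared, MIR3631b and 1 MIR3631a precursor also had groups without overlap (exact two-sided permutation p = 0.1 for each), and both use vvi-miR3631a-5p as an arm. Without Vs replicate 1 the groups did not overlap for 7 of the 13 precursors, without Vv replicate 1 for 5 and without Vv replicate 3 for 4. Groups of fewer libraries overlap less easily, so a rise in this count is not by itself a shift of the arms.

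**Figure D4:**
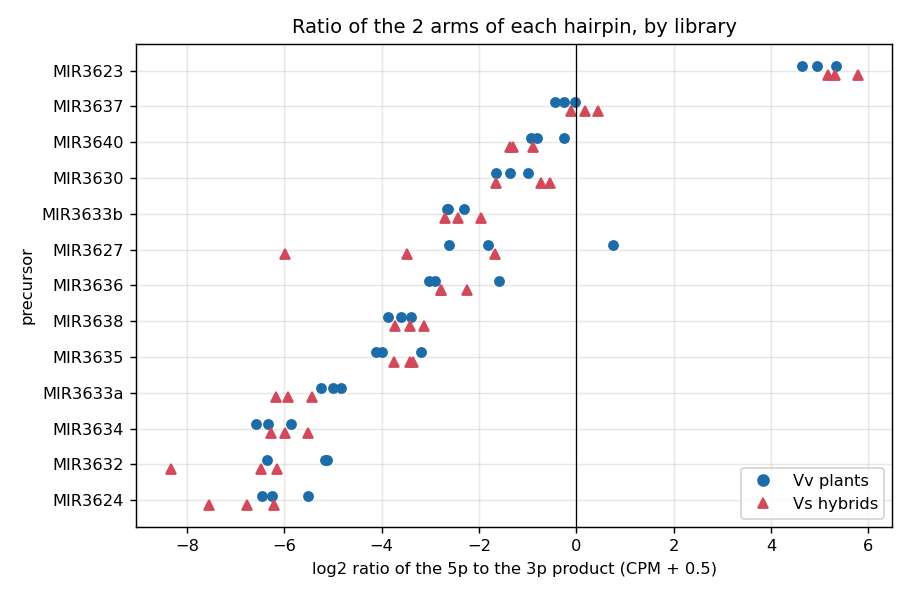
Log2 ratio of the 5p to the 3p product, after adding 0.5 CPM to each (horizontal axis), for the 13 precursors with tested products of their own (vertical axis); circles are Vv and triangles Vs libraries, and the line marks equal levels. MIR3623 lies to the right of the line in every library, MIR3624 lies far to the left, and MIR3627 has the widest spread, from -5.98 to 0.75.

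The degradome library was made to find transcripts cut at the pairing site of a miRNA. Its label gives the self-rooted plants, and the methods describe a mixture of RNA of all 6 samples, so it has 1 value per site and says nothing on a difference between the groups. Of the 648 pairings listed for 61 member names, 107 had degradome reads at the expected position, or 16.5%, against 17.6% for the whole table. Category 0 or 1, in which the site holds the highest read count of its transcript, alone or shared, was given to 38 of the 107 (35.5%), against 24.4% of the 1452 entries with reads of other miRNAs. These shares were not tested, since several entries rest on the same reads. Several transcripts of a gene share 1 site, and the 107 entries were 71 pairs of a member and a locus, or 56 distinct sets of reads and score. In category 2 the count is above the median of the transcript but below its maximum. The 38 entries of category 0 or 1 came from 5 members: vvi-miR3634-3p, vvi-miR3624-3p, vvi-miR3635-3p, vvi-miR3632-3p and vvi-miR3623-5p.

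The sites with the most reads belonged to vvi-miR3634-3p. At an alignment score of 2.5, where 0 is a perfect match and higher scores mean more mismatches, 3691 reads began at the site in transcripts MSTRG.12158.1 and MSTRG.12158.2, the highest number in the whole table. The same score and category 0 were found for VIT_19s0085g00430, annotated as a membrane protein, with 589 reads at position 98, for MSTRG.12156.1 with 251 reads and for MSTRG.12157.1 with 124 reads. The names beginning MSTRG are loci assembled in the study, and MSTRG.12156 to MSTRG.12158 carry no annotation in the file. Weaker sites of this miRNA were in MSTRG.12926.1 with 50 reads and in MSTRG.12940 with 19 reads, both at a score of 3.5. The p-value of the program was 0.0427 for the category 0 sites at a score of 2.5 and 0.0313 for those at 3.5. MSTRG.12158.8 had 3 reads in category 2 at a score of 2.5 (p-value of the program 0.997). At a score of 3.5, MSTRG.12158.4, MSTRG.12158.5, MSTRG.12158.7, VIT_19s0085g00460 and VIT_19s0085g00480 had 16 reads in category 2 (p-value of the program 0.984).

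vvi-miR3624-3p had sites in a set of loci annotated with transition metal ion homeostasis and metal ion transport. Between 2333 and 2394 reads began at the site in the transcripts of MSTRG.21654, VIT_00s0259g00070 and VIT_00s0259g00100, at a score of 4. Reads shared between transcripts were divided among them by the authors, which left 399 to 412 normalized reads for each. VIT_00s0753g00010 and MSTRG.22503 had 170 reads and VIT_00s0194g00330 and MSTRG.21301 had 94 reads, all in category 0. VIT_00s0194g00300 and VIT_00s0194g00340 matched the miRNA with a score of 0 and had fewer reads, 23 in category 0 and 2 in category 1. The better match did not carry the higher number of reads. All of the annotated loci in category 0 or 1 for this miRNA bear the same 2 annotations. The p-value of the program was 0.0514 for the category 0 sites at a score of 4 and 0.0118 for VIT_00s0194g00300. At a score of 4 there were also sites with few reads outside category 0. Their p-value was 0.999 in MSTRG.21640.1 (category 2) and 0.507 in MSTRG.15937.1 and VIT_05s0029g00330 (category 3). The levels of these transcripts were not used here.

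vvi-miR3635-3p matched 1 gene, VIT_17s0000g05850, and its assembled form MSTRG.8945 with a score of 0. This gene is annotated with ATP-driven transport across membranes and lipid transport, and 50 reads began at position 2155 in category 0. vvi-miR3632-3p, at a score of 2, had 25 reads in VIT_13s0067g00790, annotated with defense response, signal transduction and ADP binding, which is typical of plant disease resistance proteins. The site was in category 2 in VIT_13s0067g00790 and MSTRG.4083.1 and in category 0 in the transcript MSTRG.4083.3 of the same reads. The p-value of the program was 0.897 for the category 2 entries and 0.0173 for MSTRG.4083.3. vvi-miR3632-3p also had 5 reads in category 1 in VIT_11s0016g05350, annotated as a GTPase activator, at a score of 4 (p-value of the program 0.0221). The same 5 reads fell in category 2 in the assembled transcripts of MSTRG.2382 (p-value of the program 0.944).

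vvi-miR3623-5p, the most abundant of these miRNAs, had few degradome reads. In category 0 there were 14 reads in VIT_18s0041g01650, annotated with signal transduction and ADP binding, and 8 reads in VIT_19s0014g02630, annotated with regulation of proton transport, both at a score of 4. The same 8 reads fell in category 2 in the assembled transcript MSTRG.11361.1. VIT_18s0041g01620, with the same annotation as VIT_18s0041g01650, had 11 reads in category 2 (p-value of the program 0.944, as for MSTRG.11361.1). By contrast vvi-miR3635-3p, with a mean of 621 CPM against 259668 CPM, had 50 reads at its perfect match. vvi-miR3629a-3p_L+1R-1 had 8 reads at a score of 1 in VIT_07s0031g01230, annotated as a protein of the large ribosomal subunit, in category 2. The p-value of the program was 0.738 for this site.

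No pairing was listed for vvi-miR3627-5p or vvi-miR3627-3p, so the degradome table gives no site for the member that fell. Sites were listed for the poplar-named miR3627b, whose 6 reads in *ACA9* (VIT_09s0018g02130, a calcium-transporting ATPase) and MSTRG.20851 fell in category 2 at a score of 3.5. The p-value of the program was 0.976 for them. These 7 entries were listed with the same reads for aly-miR391-5p_L-1_1ss15AG, which has the same sequence. The miR3631 products had 1 to 18 reads at their sites, none in category 0 or 1, and the highest was vvi-miR3631a-5p with 18 reads in VIT_13s0073g00560 at a score of 4. For that site the p-value of the program was 0.303.

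**Figure D5:**
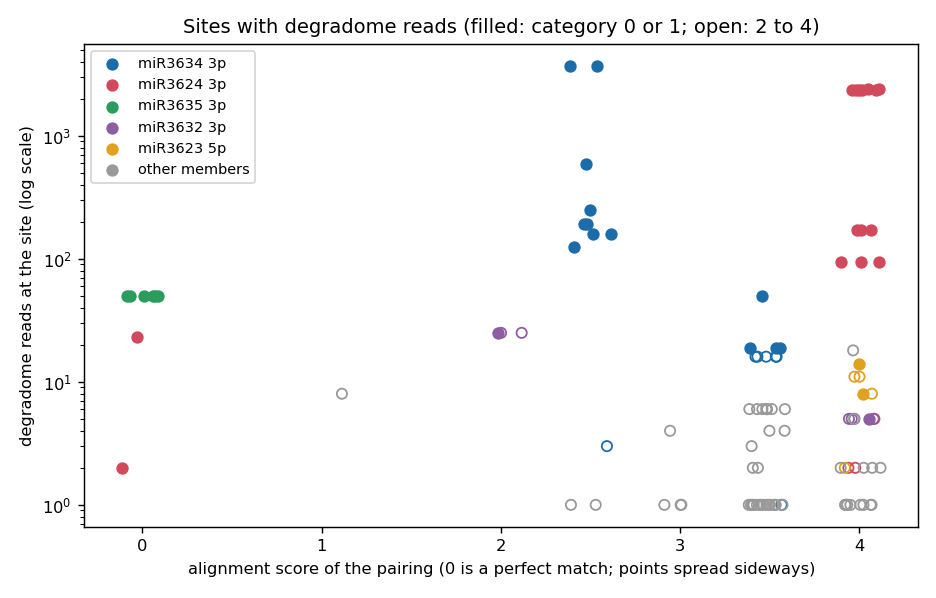
Degradome reads at the site (vertical axis, log scale) against the alignment score of the pairing (horizontal axis, 0 is a perfect match) for the 107 entries of members with reads; each point is 1 transcript, colors mark the 5 miRNAs with sites of category 0 or 1, and filled points are category 0 or 1. The points above 1000 reads belong to miR3634-3p at a score of 2.5 and miR3624-3p at a score of 4, while miR3635-3p has 50 reads at a score of 0.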

How the data were processed

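Small RNA libraries of 3 Vv plants and 3 Vs hybrids and 1 degradome library were analysed. The authors trimmed the small RNA reads, kept those of 18 to 25 nt, removed other RNAs and assigned the rest with ACGT101-miR. The deposited values are estimated counts, since a read that fits several entries is divided among them, and the deposited normalized values, a score with an unstated scale, were not tested. The table holds 1178 entries, and entries with identical counts and the same sequence or base name were used once, which left 1024. Estimated counts were rounded, miRNAs were kept by filterByExpr, and Vs was compared with Vv by edgeR 4.0.16 (glmQLFit and glmQLFTest, TMM). The adjusted p is Benjamini-Hochberg over the 332 tested miRNAs. On counts simulated for Vs against Vv, with large changes only and the same spread for every miRNA, 197 of 200 changed miRNAs were recovered. There were 8 false calls among 147 unchanged miRNAs. The simulation cannot tell how many smaller changes, or changes in miRNAs with a wider spread, the test misses. Replicates are separate plants, and the 3 libraries of a group differed by more than sampling noise. Counting error only is covered by the read numbers given.

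The degradome values were made by the authors with CleaveLand: a deposited count of reads per site, a normalized read score, an alignment score and category, and the p-value of the program. The count, the alignment score and the category are used throughout, and the normalized reads for vvi-miR3624-3p. The p-value is given for vvi-miR3624-3p, vvi-miR3632-3p, vvi-miR3634-3p and the named sites of category 2, and is used also as an alternative limit. RNA-seq values were not used here. Members, groups and tests were chosen with earlier results of these data known. Values per library are named for members past the test, for members with a mean of at least 100 CPM and for the arms of a precursor, and sites for category 0 or 1 or a score of at most 2. DESeq2 1.42.0, other scalings, other filters, other handling of duplicate entries, a replicate block and leaving out each library were tried as alternatives.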

Additional observations from a re-analysis of the deposited data

How the results depend on the processing

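The number of members past the threshold, 1, was also 1 with DESeq2 size factors, total count scaling, TMM without the 10 most abundant miRNAs, no filter, all entries kept, and entries of 1 sequence merged. It was 2 with the DESeq2 test and 0 with at least 10 counts in every library, where vvi-miR3627-5p was not tested and edgeR gave 5 members at an unadjusted p under 0.05. It ranged from 0 to 2 with 1 library left out. Over all tested miRNAs the count of 20 became 45 with the DESeq2 test, 0 with at least 10 counts in every library (53 at an unadjusted p under 0.05 from edgeR) and 1 to 17 with 1 library left out. vvi-miR3627-5p ranged from -4.21 to -3.46 on the log2 scale with 1 library left out. The number of arm ratios whose groups did not overlap, 1, ranged from 1 to 7 with 1 library left out, where groups overlap less easily. The cause of these changes was not tested, and some of these settings also had fewer miRNAs or libraries.

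Replicate numbers did not pair the samples: same-numbered libraries correlated at -0.18, 0.009 and -0.11 in their deviations from the group means, and no library correlated best with its own number. With the replicate block edgeR called 0 miRNAs and 0 members (75 and 3 at an unadjusted p under 0.05), and the log2 value of vvi-miR3627-5p was -3.97 (adjusted p = 0.0531).

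The 71 pairs of a member and a degradome locus became 21 for category 0 and 1 only, 16 for an alignment score of at most 3, 14 for a p-value of at most 0.05 and 107 with every transcript counted. The 11 members whose groups did not overlap were 11 with DESeq2 size factors and 9 with total count scaling, alternatives chosen after seeing the data.

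Of the 38 other tested members, 10 turned direction under some alternative, whose main log2 fold changes lay between -0.22 and 0.16. Without a filter vvi-MIR3631a-p5_2ss8AT22GA was at -0.079, vvi-miR3633b-5p_R-1 at -0.017, vvi-miR3633b-3p at -0.12 and vvi-miR3634-5p at -0.16. With DESeq2 size factors vvi-miR3633b-3p was at -0.0087 and vvi-miR3634-5p at -0.0051, with the DESeq2 test at -0.0086 and -0.0051, and with at least 10 counts in every library at -0.021 and -0.010. TMM without the 10 most abundant miRNAs put vvi-miR3634-5p at -0.0067, and the replicate block put vvi-miR3632-3p at 0.028 and vvi-miR3633b-3p at -0.039. With 1 library left out, the log2 fold change ranged from -0.33 to 0.022 for vvi-miR3623-3p_R-1, from -0.30 to 0.081 for vvi-miR3629a-5p, from -0.62 to 0.41 for vvi-miR3630-5p_L-1, from -1.21 to 0.21 for vvi-miR3630-3p, from -0.15 to 0.39 for vvi-MIR3631a-p5_2ss8AT22GA, from -0.36 to 0.47 for vvi-miR3632-3p, from -0.37 to 0.21 for vvi-miR3633a-3p, from -0.11 to 0.43 for vvi-miR3633b-5p_R-1, from -0.42 to 0.22 for vvi-miR3633b-3p and from -0.20 to 0.32 for vvi-miR3634-5p.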
